A study of Mus musculus with 68 samples.

Results

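The genes described here are 45 named mouse genes for DNA replication and for the supply of nucleotides to it, taken by symbol from a list. The list was chosen with earlier results of these data known. The shares of all genes set beside counts of members are therefore descriptive and not an independent test of the list. Each gene was represented by the probe set annotated to that gene alone, and 44 of the 45 had one, among 30142 genes measured in all. The exception was Mcm7, a subunit of the replicative helicase, whose only probe set carries 3 gene symbols and was kept out of the comparisons. By role, the 44 measured genes comprised 10 origin licensing genes, 6 helicase activation genes, 8 polymerase and primase genes, 7 genes of the sliding clamp, its loader and lagging strand joining, 3 single-strand binding genes, 5 nucleotide supply genes and 5 genes of chromatin assembly and S-phase control.

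Expression was measured on 68 Affymetrix whole-transcript arrays of RNA from the whole uterus of ovariectomized mice, in 25 groups of 2 or 3 arrays, and is given as log2 values. The series title asks how estrogen receptor alpha, the product of Esr1, contributes to the uterine transcriptional response to the growth factor IGF1. There were 3 mouse sets, all on C57Bl6: wild types bought from Charles River (14 arrays), Ex3aERKO mice, which are Esr1-null, with their wild-type littermates (11 and 14 arrays), and ERaUtcKO mice, genotype Esr1f/f;PgrCre+, with their wild-type littermates (15 and 14 arrays). In the ERaUtcKO line the recombinase comes from the progesterone receptor gene, so cells that do not express that gene keep Esr1. Every line received 5 treatments: saline vehicle for 24 h, 250 ng of estradiol (E2) for 2 h or 24 h, and IGF1 for 2 h or 24 h. IGF1 was given as 50 ug by injection or from an implanted pump filled at 0.5 mg/ml, and the labels do not say which route each mouse had. There was no 2 h vehicle, so the 2 h arrays were set against the 24 h vehicle. In 7 groups with 2 arrays the submitters had removed the third as an outlier, and the spread of those groups is the spread after that removal. The labels do not say whether each array is 1 mouse or a pool, so p-values measure only the spread between these samples, which may be technical.

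A chromosome is copied once per cell cycle from origins that are licensed in G1, when the origin recognition complex, Cdc6 and Cdt1 load the ring-shaped Mcm2-7 helicase. In S phase Cdc45 and the GINS complex switch the helicase on, polymerase alpha-primase lays down primers, and polymerases delta and epsilon extend them on the Pcna clamp, while ribonucleotide reductase and thymidylate synthase provide the building blocks. Transcription of many of these genes is driven at the G1/S boundary by E2F factors. In the uterus of an ovariectomized rodent, a single dose of estradiol carries resting luminal epithelial cells into S phase in a synchronous wave, and IGF1, made in the uterus in response to estradiol, is a mitogen for the same cells.

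E2F letters were more frequent in the promoters of these genes than in those of protein-coding genes at large, though most carried none. Of the promoters that carry them, 6 are shown because they span the responses described below. They run from Mcm6 and Mcm5, among the largest rises, to Orc1, which was not called in the fit of all wild types. Mcm3, Rrm1 and Rrm2, which rose more than Mcm5 at 24 h of E2, carried none. RefSeq (GRCm38.p6) start sites were listed for 37 of the 45 genes. In the 250 bases upstream of the start, 10 of the 37 genes (27.0%) held 1 or more of the E2F octamers TTTCCCGC, TTTCGCGC, TTTGCCGC or TTTGGCGC on either strand, against 475 of 17492 protein-coding genes (2.72%). Those octamers can overlap each other on opposite strands, as they do in Mcm5 and in Mcm6, the only members with 2 or more matches. The sequences run 5′ to 3′ on the gene's strand and end at the last base before the start site, with the E2F octamers in capitals:
Mcm6, chr1:128359706-128359825, minus strand: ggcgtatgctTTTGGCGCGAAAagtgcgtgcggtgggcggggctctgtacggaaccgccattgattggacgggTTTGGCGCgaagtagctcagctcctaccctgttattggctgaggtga
Mcm5, chr8:75109346-75109508, plus strand: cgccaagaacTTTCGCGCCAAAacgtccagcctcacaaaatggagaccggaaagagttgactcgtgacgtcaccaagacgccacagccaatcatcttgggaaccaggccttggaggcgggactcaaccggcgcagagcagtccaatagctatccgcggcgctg
Cdc6, chr11:98908003-98908150, plus strand: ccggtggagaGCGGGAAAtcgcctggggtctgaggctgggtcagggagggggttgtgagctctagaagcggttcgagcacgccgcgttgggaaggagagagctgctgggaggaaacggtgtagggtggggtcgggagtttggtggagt
Gins3, chr8:95633499-95633558, plus strand: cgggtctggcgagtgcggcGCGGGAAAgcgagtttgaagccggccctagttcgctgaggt
Dtl, chr1:191575545-191575604, minus strand: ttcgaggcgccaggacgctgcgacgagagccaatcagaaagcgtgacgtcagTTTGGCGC
Orc1, chr4:108579394-108579453, plus strand: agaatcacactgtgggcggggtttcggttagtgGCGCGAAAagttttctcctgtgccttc

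Other short motifs were searched in the same windows and on both strands. The letters CCAAT were found in 24 of 37 genes (64.9%, against 39.5% of protein-coding genes) and GGGCGG, a GC box, in 25 (67.6% against 45.8%). The cell cycle homology element TTTGAA was in 5 (13.5% against 16.9%), and the palindromic estrogen response element (GGTCA, 3 bases of any kind, TGACC) was in none (against 0.0572%). A match describes letters only, and these windows say nothing of elements elsewhere. Among the measured genes, the 9 with an E2F octamer had a median E2 response at 24 h of 1.80 on the log2 scale (range 0.16 to 2.69), and the 27 without had a median of 1.32 (range 0.33 to 3.27), so the ranges overlapped almost fully.

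Before the results, the arrays were checked against their labels and for other tissue. Esr1 was lower on every knockout array than on every littermate array of the same treatment, by 1.81 to 2.39 in Ex3aERKO and by 1.21 to 1.69 in ERaUtcKO (log2). Array medians lay between 6.43 and 6.60 in the C57 set, 5.82 and 6.15 in the Ex3aERKO set and 6.26 and 6.62 in the ERaUtcKO set, so levels are compared only within a set. The uterine markers Hoxa11 and Pgr were present on all arrays, at 8.06 to 12.06 and 12.05 to 17.13. Liver markers were spread unevenly over the sets, as given below for E2 at 24 h. Their summed log2 signal was 6.89 to 7.49 in the Ex3aERKO set. C57 mice had 15.67 to 17.55 under vehicle, 12.11 to 15.21 at 2 h of E2, 8.88 to 9.83 at 2 h of IGF1 and 9.43 to 9.73 at 24 h of IGF1. ERaUtcKO mice had 11.2 to 15.33 under vehicle, 10.82 to 17.41 at 2 h of IGF1 and 9.2 to 10.45 at 24 h. Summed adipose markers ran from 8.15 to 14.06 over all arrays. In ERaUtcKO mice they ran from 9.2 to 11.87 under vehicle and from 12.07 to 13.65 at 2 h of E2. Summed ovary markers ran from 8.41 to 8.46 under vehicle and from 9.78 to 10.33 at 2 h of IGF1 in C57 mice. In ERaUtcKO mice they ran from 8.35 to 8.44 and then from 9.03 to 9.30. They were also above vehicle at 2 h of IGF1 in the other lines. The brightest ovary marker was Star (mean log2 7.35). The part of any of these tissues in the results was not tested. Array 2 of the Ex3aERKO littermates given IGF1 for 24 h stood apart, as described below.

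Under vehicle, several of these genes were close to the background of the arrays. The 95th percentile of 23 antigenomic probe sets, background controls without a mouse target, was 6.89 in the C57 set, 5.63 in the Ex3aERKO set and 5.89 in the ERaUtcKO set. Below it in wild-type vehicle uteri were 5 members in C57 mice (Orc1, Cdc6, Gmnn, Mcm10 and Fen1), 7 in Ex3aERKO littermates (Cdc6, Cdt1, Mcm10, Fen1, Rrm2, Chaf1b and Dtl) and 4 in ERaUtcKO littermates (Cdt1, Mcm10, Fen1 and Rrm2). After E2 for 24 h only Orc1 in C57 mice and Fen1 in both littermate sets were below it. For such genes a fold change may understate the change in RNA.

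Estradiol for 24 h raised nearly all of the replication genes in wild-type uteri. In the fit of the 42 wild-type arrays with the mouse set as a term (8 vehicle and 9 E2 arrays at 24 h), 43 of 44 rose at an adjusted p under 0.05 (limma, Benjamini-Hochberg over all genes) and none fell, where 24.5% of all genes rose and 31.7% fell. The median difference was 1.49 on the log2 scale, against -0.07 over all genes. Of the 44, 31 at least doubled, and the share of all genes that did so was not counted. The exception was Orc1, the largest subunit of the origin recognition complex, at 0.16 ± 0.10 (SE, adjusted p = 0.19). Tested in each set alone, Orc1 was called in C57 mice, at 0.57 ± 0.07 (adjusted p = 4.6e-05, limma), and not in Ex3aERKO littermates, at -0.21 ± 0.15, or ERaUtcKO littermates, at 0.00 ± 0.09.

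**Figure D1:**
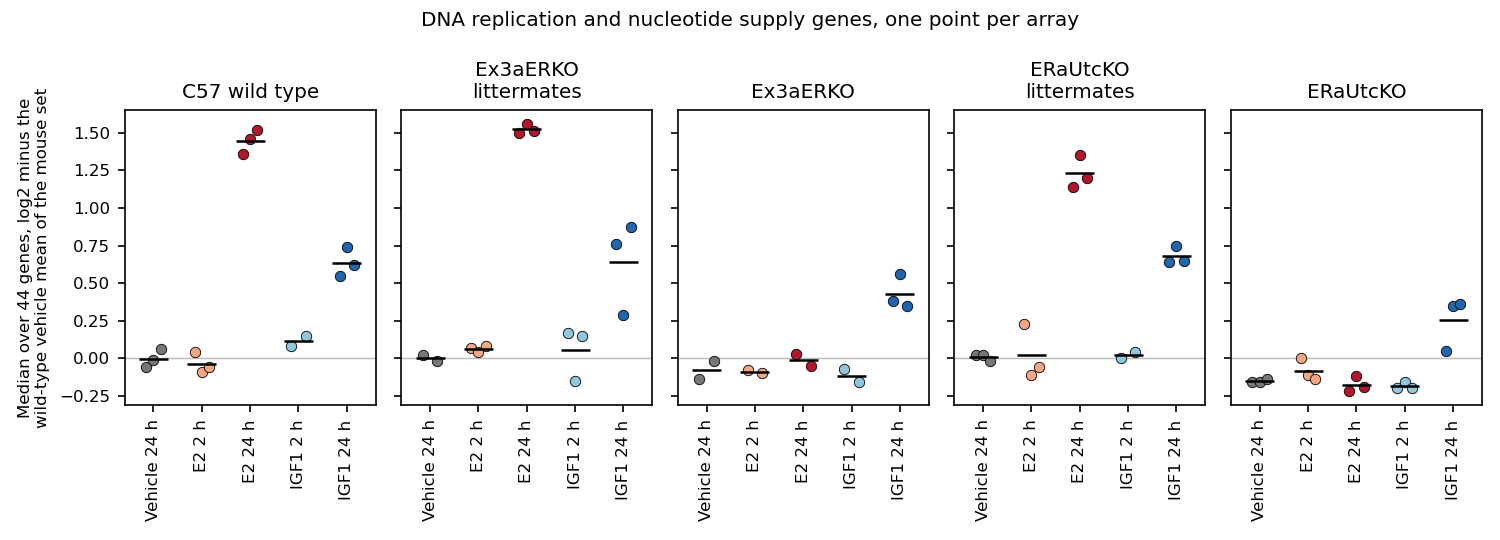
Each point is 1 array: the median over the 44 genes of the log2 value minus the wild-type vehicle mean of the same mouse set; lines are group means of 2 or 3 arrays. The wild-type E2 24 h arrays sit between 1.14 and 1.56, the IGF1 24 h arrays of all lines between 0.05 and 0.87, and the knockout E2 24 h arrays between -0.22 and 0.03.

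Among the licensing genes, the helicase subunits Mcm3, Mcm5, Mcm2 and Mcm6 had the largest E2 rises. In C57 mice Mcm3 read 9.15, 9.02 and 9.42 under vehicle and 12.20, 11.90 and 12.17 after E2 for 24 h. In Ex3aERKO littermates the same probe set read 6.90 and 6.88 under vehicle and 10.65, 10.68 and 10.70 after E2. In ERaUtcKO littermates it read 7.07, 7.52 and 7.47 and then 10.35, 10.63 and 10.64. No E2 array overlapped a vehicle array of its set, and the fitted rise was 3.27 ± 0.14, or 9.66-fold (adjusted p = 1.71e-21, limma). Mcm5 rose by 2.69 ± 0.13, Mcm2 by 2.34 ± 0.12 and Mcm6 by 2.29 ± 0.17. Mcm4 rose by 1.78 ± 0.11. Cdc6, an ATPase that recruits the helicase, rose by 1.80 ± 0.09, Cdt1, its partner, by 0.91 ± 0.07, and Orc6, the smallest subunit of the recognition complex, by 0.76 ± 0.09. Gmnn, which encodes geminin, the inhibitor of Cdt1, rose by 1.73 ± 0.14.

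The genes that switch the helicase on rose as well, but unevenly. Cdc45 rose by 1.75 ± 0.08, Gins1 by 1.73 ± 0.13, Gins2 by 1.58 ± 0.10 and Mcm10, a firing factor, by 1.51 ± 0.08. The other two GINS subunits rose by less, Gins3 by 0.51 ± 0.07 and Gins4 by 0.46 ± 0.09. The polymerase and primase genes had a median difference of 1.44, from 0.33 for Pold1, the catalytic subunit of polymerase delta, to 1.73 for Pole2, the second subunit of polymerase epsilon. Pold2, the second subunit of polymerase delta, rose by 1.48 ± 0.09. The primase genes Prim1 and Prim2 rose by 1.32 ± 0.11 and 1.40 ± 0.09, and the polymerase alpha genes Pola1 and Pola2 by 1.02 ± 0.07 and 1.58 ± 0.08.

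At the fork, Pcna, the sliding clamp, and Lig1, the ligase that joins lagging strand fragments, each rose by 1.64. The clamp loader genes Rfc2, Rfc3, Rfc4 and Rfc5 rose by 0.77 to 1.13, and Fen1, the flap nuclease, by 0.50 ± 0.12. In each set alone, Fen1 rose by 1.11 ± 0.12 in C57 mice and 0.57 ± 0.20 in Ex3aERKO littermates, and in ERaUtcKO littermates, where it was not called, the difference was -0.15 ± 0.09. The subunits of replication protein A, which coats single strands, rose as well: Rpa1 by 0.94 ± 0.07, Rpa2 by 0.86 ± 0.08 and Rpa3 by 0.88 ± 0.13.

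The nucleotide supply genes spanned a wide range, from 0.52 for Dut to 3.05 for Rrm2. Rrm1 and Rrm2, the large and small subunits of ribonucleotide reductase, rose by 3.03 ± 0.13 and 3.05 ± 0.12. In C57 mice Rrm1 read 10.94, 10.89 and 10.99 under vehicle and 13.37, 13.51 and 13.44 after E2, with no overlap. Tyms, thymidylate synthase, rose by 2.06 ± 0.11. Tk1, which salvages thymidine, rose by 1.16 ± 0.22, and Dut, which removes dUTP, by 0.52 ± 0.07. Of the genes for chromatin assembly and S-phase control, Uhrf1, which maintains DNA methylation behind the fork, rose by 2.52 ± 0.10 and Dtl, which targets Cdt1 for destruction, by 2.16 ± 0.11. Chaf1a and Chaf1b, subunits of the CAF-1 histone chaperone, rose by 1.58 ± 0.13 and 1.27 ± 0.08, and Slbp, which binds histone mRNA, by 0.68 ± 0.06.

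The median E2 rise over members at 24 h was of like size in each mouse set taken alone. Single members differed between the sets, as given below. In C57 mice 44 of 44 rose (19.6% of all genes, median of members 1.48), in Ex3aERKO littermates 43 (17.4%, median 1.54) and in ERaUtcKO littermates 40 (20.4%, median 1.24). The ERaUtcKO littermates had an all-gene median of -0.16. Markers of other cells moved at the same time. Of 7 epithelial markers 6 rose. The log2 of their summed signal ran from 13.46 to 14.24 on wild-type vehicle arrays and from 15.82 to 16.50 on E2 24 h arrays. Signals were summed on the linear scale, so the brightest marker weighs most. It was Dcn for stroma (mean log2 17.5) and Lyz2 for leukocytes (15.26). Of 6 stromal markers 4 rose and 1 fell (summed 18.31 to 18.81 and 18.00 to 18.51), and all 6 smooth muscle markers rose (17.81 to 18.99 and 18.86 to 19.64). Of 9 leukocyte markers 6 fell (15.20 to 16.78 and 14.36 to 16.54). The part of these shifts in the result was not tested. In whole tissue, fewer cells of a type and less RNA per cell cannot be told apart. The summed liver markers ran from 15.67 to 17.55 under vehicle and from 9.88 to 10.15 after E2 in C57 mice, from 9.31 to 13.39 and then 8.24 to 8.53 in ERaUtcKO littermates, and from 6.92 to 6.94 and then 6.89 to 6.92 in Ex3aERKO littermates. Their part in the result was not tested.

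IGF1 for 24 h raised most of the same set, by less. In wild types 38 of 44 rose and none fell, where 19.3% of all genes rose and 21.6% fell. The median difference was 0.61, against -0.06 over all genes. At least doubled were 9 members, and the share of all genes that did so was not counted. The 6 that did not pass were Orc1 (-0.19 ± 0.10), Orc6 (0.15 ± 0.09), Gins4 (0.05 ± 0.09), Fen1 (0.16 ± 0.12), Rpa2 (0.19 ± 0.08) and Tk1 (0.41 ± 0.22).

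The largest IGF1 rise at 24 h was that of Rrm2, at 1.56 ± 0.12 (adjusted p = 7.90e-13, limma). In C57 mice Rrm2 read 6.81, 6.82 and 7.24 under vehicle and 8.74, 8.70 and 8.77 after IGF1. In Ex3aERKO littermates it read 5.02 and 5.32 and then 6.55, 6.27 and 6.77, and in ERaUtcKO littermates 5.36, 5.60 and 5.46 and then 6.83, 7.15 and 6.98. IGF1 and vehicle arrays did not overlap in any of the wild-type sets. Mcm3 rose by 1.41 ± 0.14, Rrm1 by 1.28 ± 0.13, Mcm5 by 1.18 ± 0.13, Tyms by 1.18 ± 0.11 and Dtl by 1.17 ± 0.11. Pcna and Pole2 each rose by 0.97.

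Within the mouse sets, array 2 of the Ex3aERKO littermates was low. Called higher were 37 of 44 in C57 mice (14.4% of all genes), 22 in Ex3aERKO littermates (3.51%) and 38 in ERaUtcKO littermates (16.8%), with medians of 0.65, 0.60 and 0.67. Called lower was 1 member, Orc1, in Ex3aERKO littermates (1.85% of all genes) and in ERaUtcKO littermates (26.7%), and none in C57 mice. The median over members was 0.29 on that array and reached 0.87 on the highest of its group, and the members' median SD in the group was 0.30, against 0.15 for all genes. Of the markers, 4 of 7 epithelial genes rose at IGF1 24 h (summed 14.12 to 14.55), 5 of 6 stromal genes rose and 1 fell (18.15 to 18.69), and 6 of 6 smooth muscle genes rose (18.91 to 20.06). The part of these shifts in the result was not tested.

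**Figure D2:**
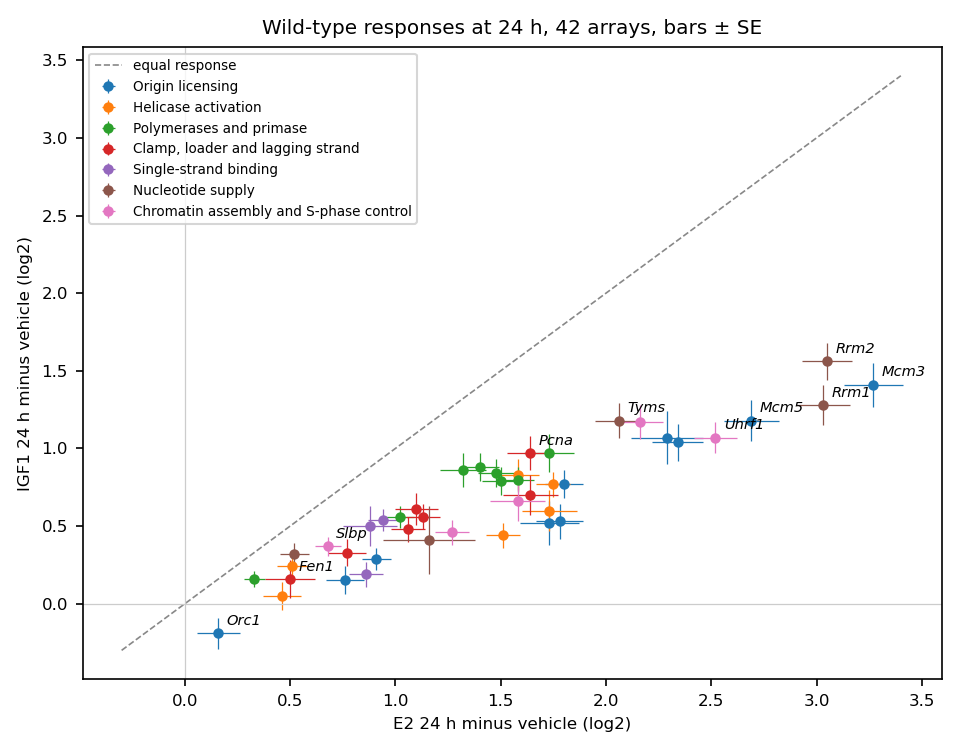
Each point is 1 of the 44 genes, coloured by role, with the wild-type E2 24 h response on the x axis and the IGF1 24 h response on the y axis (log2 differences from the same vehicle arrays, bars ± SE). All points lie below the dashed line of equal response; Mcm3 is at 3.27 and 1.41 and Orc1 at 0.16 and -0.19.

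Compared directly, with no vehicle array involved, E2 gave higher levels than IGF1 at 24 h for all 44 genes at an adjusted p under 0.05, where 15.3% of all genes were higher and 12.9% lower. The median difference was 0.73, and 12 members differed by at least 2-fold, a cutoff at which the share of all genes was not counted. It was largest for Mcm3 (1.87) and Rrm1 (1.74), and smallest for Pold1 (0.16) and Dut (0.20). By role the median was highest for origin licensing, at 1.21, and lowest for single-strand binding, at 0.41. Quantile normalization left 42 of the 44 called.

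At 2 h the set did not move as a whole. After E2, 11 of 44 wild-type members rose and 9 fell, where 17.2% and 22.8% of all genes did, and the median difference was -0.01. After IGF1, 9 rose and 5 fell, where 16.9% and 19.0% of all genes did, with a median of 0.07. Counted in either direction, 45.5% of members were called after E2 against 40.0% of all genes, and 14 of 44 after IGF1 against 35.9%. The split depends on the scaling. With each array centred on its median, 12 rose and 5 fell after E2, and 15 rose and 1 fell after IGF1. After quantile normalization 13 rose and 4 fell with IGF1. The shares of all genes given here are from the values as deposited, so they do not apply to these re-scaled counts. In place of 14 calls after IGF1, there were 8, 8 and 9 when the C57, Ex3aERKO and ERaUtcKO sets were left out.

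**Figure D3:**
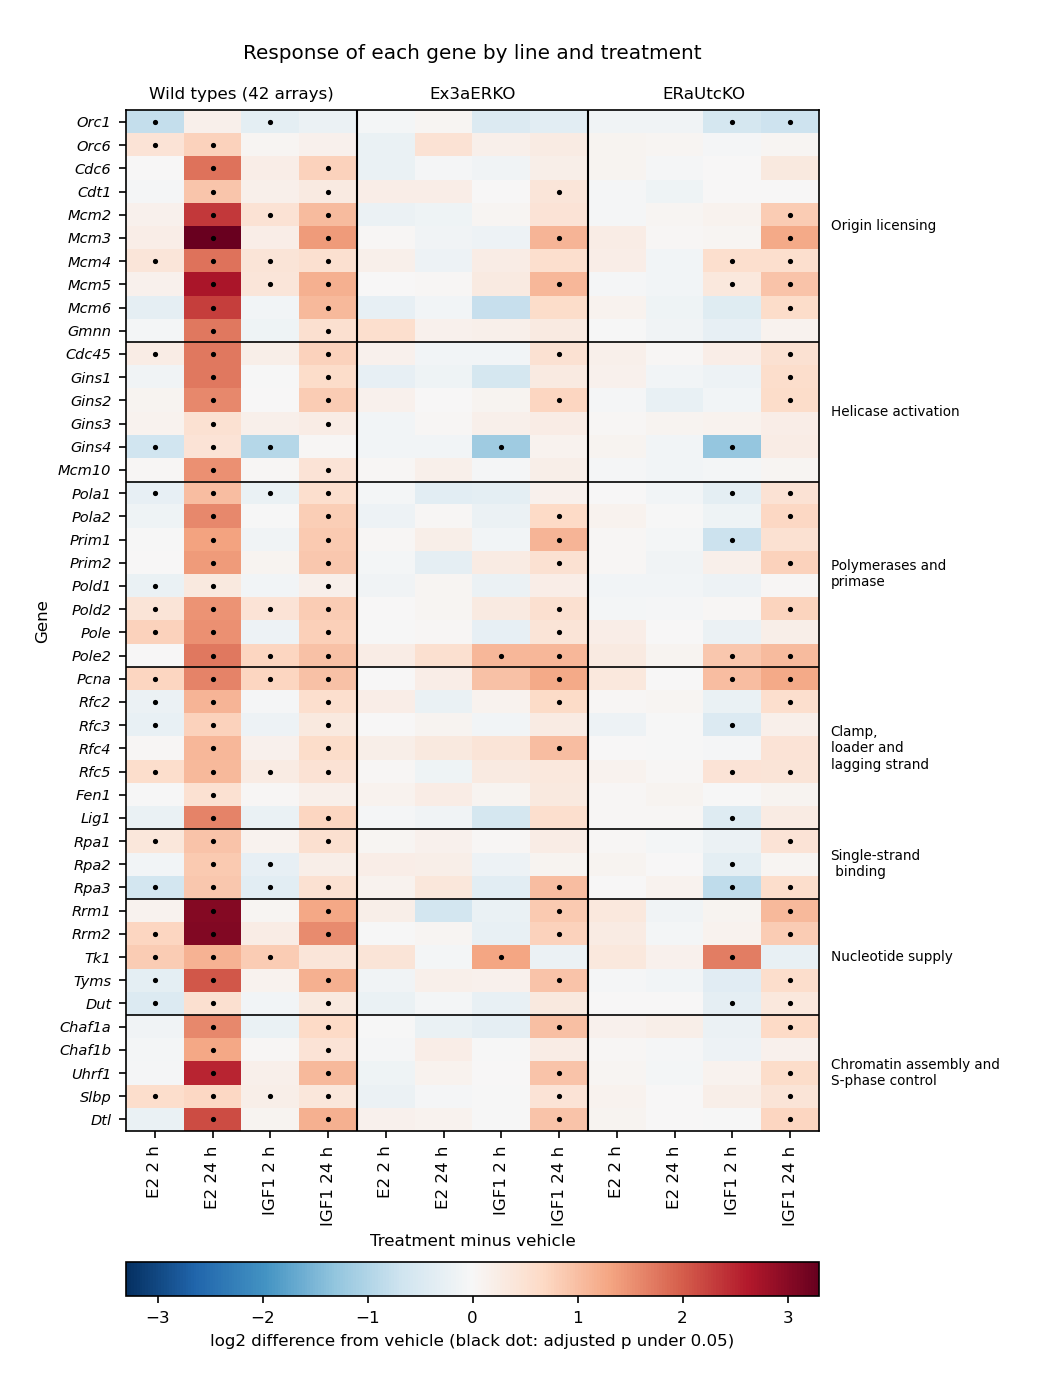
Rows are the 44 genes grouped by role and columns the 4 treatments in wild types, Ex3aERKO and ERaUtcKO mice; colour is the log2 difference from vehicle and a black dot marks an adjusted p under 0.05. Dots fill the wild-type E2 24 h column (43) and most of the IGF1 24 h column (38), and are missing from both knockout E2 columns.

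Single genes did respond early, and some at opposite signs within one complex. Pcna rose by 0.72 ± 0.11 at 2 h of E2 and by 0.72 ± 0.12 at 2 h of IGF1. In C57 mice it read 10.99, 10.91 and 11.16 under vehicle, 11.65, 11.65 and 11.69 after E2 and 11.71 and 11.74 after IGF1, all above vehicle. Mcm4, Pold2, Rfc5 and Slbp also rose at 2 h of either agent, by 0.19 to 0.59. Gins4, a GINS subunit, fell by 0.65 ± 0.09 at 2 h of E2 and by 0.93 ± 0.10 at 2 h of IGF1. Its C57 values were 10.75, 10.64 and 10.67 under vehicle, 10.07, 9.78 and 9.94 after E2 and 9.88 and 9.73 after IGF1. By 24 h of E2 it had passed above vehicle, at 11.02, 11.21 and 11.09. Rpa3 fell by 0.61 ± 0.13 and 0.35 ± 0.14, while Rpa1 rose by 0.38 ± 0.07 at 2 h of E2.

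The catalytic and second subunits of polymerase epsilon separated the agents at 2 h. Pole rose by 0.76 ± 0.09 after E2 and differed from vehicle by -0.16 ± 0.09 after IGF1 (adjusted p = 0.205). In C57 mice Pole read 7.49, 7.61 and 7.71 under vehicle, 8.59, 8.39 and 8.63 after E2 and 7.49 and 7.63 after IGF1. Only the E2 arrays stood above vehicle. Pole2 showed 0.00 ± 0.12 after E2 (adjusted p = 0.982) and a rise of 0.71 ± 0.13 after IGF1. Its C57 values were 8.10, 7.98 and 8.10, then 7.83, 7.87 and 7.60 after E2, all below vehicle, and 8.61 and 8.65 after IGF1, both above. The sets were not alike after E2: Ex3aERKO littermates read 7.22, 7.08 and 7.13, above their vehicle arrays at 6.85 and 6.69, and ERaUtcKO littermates 7.58, 7.18 and 7.15, against 7.44, 7.27 and 7.28. In the direct comparison at 2 h, E2 minus IGF1, Pole differed by 0.92 (adjusted p = 9.55e-11) and Pole2 by -0.70 (adjusted p = 2.40e-05, limma). Of the 44 genes, 7 were higher with E2 and 6 with IGF1, where 9.60% and 12.4% of all genes were. Without the C57 set there were 5 calls in place of 13, and with array weights 20.

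**Figure D4:**
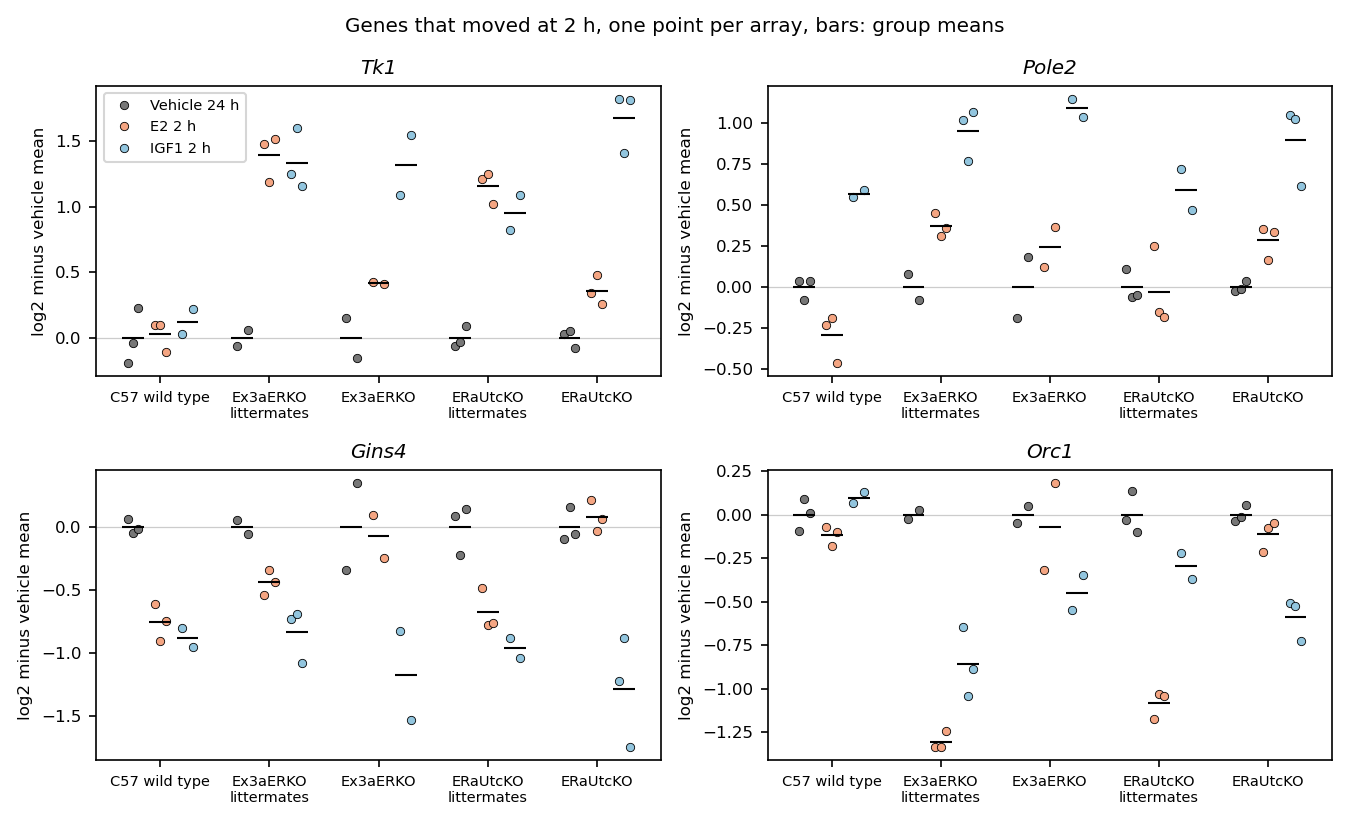
Points are arrays, as log2 value minus the mean of the line's own vehicle arrays, for Tk1, Pole2, Gins4 and Orc1 in the 5 lines under vehicle, E2 2 h and IGF1 2 h; lines are group means. Tk1 rises at 2 h in the littermate sets and not in C57 mice, and Gins4 is low after IGF1 in every line.

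Tk1 and Orc1 gave different early responses in different wild-type mice. In C57 mice Tk1 read 6.96, 7.11 and 7.38 under vehicle and 7.25, 7.25 and 7.04 at 2 h of E2, which overlap. In Ex3aERKO littermates it read 7.34 and 7.46 under vehicle and 8.88, 8.59 and 8.92 at 2 h of E2, and in ERaUtcKO littermates 7.41, 7.44 and 7.56 and then 8.68, 8.72 and 8.49. The 2 h arrays of both littermate sets were all above vehicle, and exceeded their own E2 24 h arrays in ERaUtcKO littermates, which read 8.29, 8.22 and 8.16. In C57 mice the E2 24 h arrays were highest, at 8.97, 9.02 and 8.71. Orc1 read 5.98, 6.16 and 6.08 under vehicle in C57 mice and 6.0, 5.89 and 5.97 at 2 h of E2. In Ex3aERKO littermates it fell from 7.30 and 7.35 to 5.99, 5.99 and 6.08, and in ERaUtcKO littermates from 7.42, 7.59 and 7.35 to 6.28, 6.42 and 6.41. Orc1 in C57 mice lay below the antigenomic 95th percentile, so a fall there could not be followed. In a test added after the values were seen, the mean response of the littermate sets minus that of C57 mice differed for 2 members at 2 h of E2 (2.11% of all genes), Tk1 by 1.25 and Orc1 by -1.06, and for 2 at 2 h of IGF1 (1.07%), the same genes. At 24 h it was called for 10 members with E2 (11.3%) and for 2 with IGF1 (1.82%).

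Between 2 h and 24 h the set rose under both agents. From E2 2 h to E2 24 h, 42 of 44 rose (27.1% of all genes), with a median of 1.36, and from IGF1 2 h to IGF1 24 h 34 of 44 rose (20.1%), with a median of 0.57. Slbp changed least between the E2 times, by 0.09 (adjusted p = 0.239), since it stood 0.59 above vehicle at 2 h already. Tk1 was the other gene without a call, at an adjusted p of 0.22.

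In the knockouts no member's E2 response was detected. In Ex3aERKO mice none of the 44 was called at 2 h or at 24 h of E2, with medians of 0.00 and 0.05. Over all genes 0.149% were called at 2 h and 0.0% at 24 h, where 4166 had an unadjusted p under 0.05 (limma). In ERaUtcKO mice none was called at either time, with medians of 0.05 and -0.03, where 0.491% and 0.0% of all genes were called and 1151 genes had an unadjusted p under 0.05 at 24 h. At that unadjusted level 3 members in Ex3aERKO and 0 in ERaUtcKO passed at 24 h. The 95% intervals of the 24 h responses in ERaUtcKO reached from -0.54 to 0.46 over all members, so none held a 2-fold change. In Ex3aERKO, with 2 arrays a group, they reached from -1.28 to 1.00.

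Rrm1 had the largest difference between knockout and littermate responses in both lines, so its values show the loss at its most extreme. In Ex3aERKO its response to E2 at 24 h, -0.60, was also the lowest of all members, whose median was 0.05. In Ex3aERKO mice Rrm1 read 8.82 and 8.96 under vehicle and 8.37 and 8.21 at 24 h of E2, both below vehicle. In their littermates it went from 9.19 and 9.31 to 12.55, 13.06 and 12.68. In ERaUtcKO mice it read 9.36, 9.33 and 9.08 under vehicle and 9.29, 9.07 and 9.08 after E2, which overlap. Their littermates went from 9.65, 9.38 and 9.81 to 12.72, 12.81 and 12.62. The difference between the responses, knockout minus littermates, was -4.12 (95% interval -5.04 to -3.20) in Ex3aERKO and -3.22 (-3.73 to -2.70) in ERaUtcKO. Mki67, a proliferation marker outside the set, was 4.44 ± 0.27 above vehicle in wild types at 24 h of E2, and -0.16 ± 0.71 and -0.24 ± 0.48 in Ex3aERKO and ERaUtcKO.

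Tested as an interaction, the E2 24 h response was smaller in the knockout for 37 of 44 members in Ex3aERKO and for 39 in ERaUtcKO, and larger for none. Over all genes 10.5% and 15.5% had a lower response in the knockout. Median interactions were -1.50 and -1.20, against 0.10 and 0.13 over all genes, which centring each array moved to -0.02 and 0.01 while 39 members were called in each line. In Ex3aERKO the 7 not called were Orc1, Orc6, Gins3, Pold1, Rfc4, Fen1 and Rpa3. In ERaUtcKO the 5 not called were Orc1, Orc6, Gins3, Gins4 and Fen1. At 2 h the interaction was called for 3 members in Ex3aERKO (9.43% of all genes) and 9 in ERaUtcKO (13.8%). In both lines the E2 rises of Tk1 and Slbp and the E2 fall of Orc1 were smaller in the knockout.

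**Figure D5:**
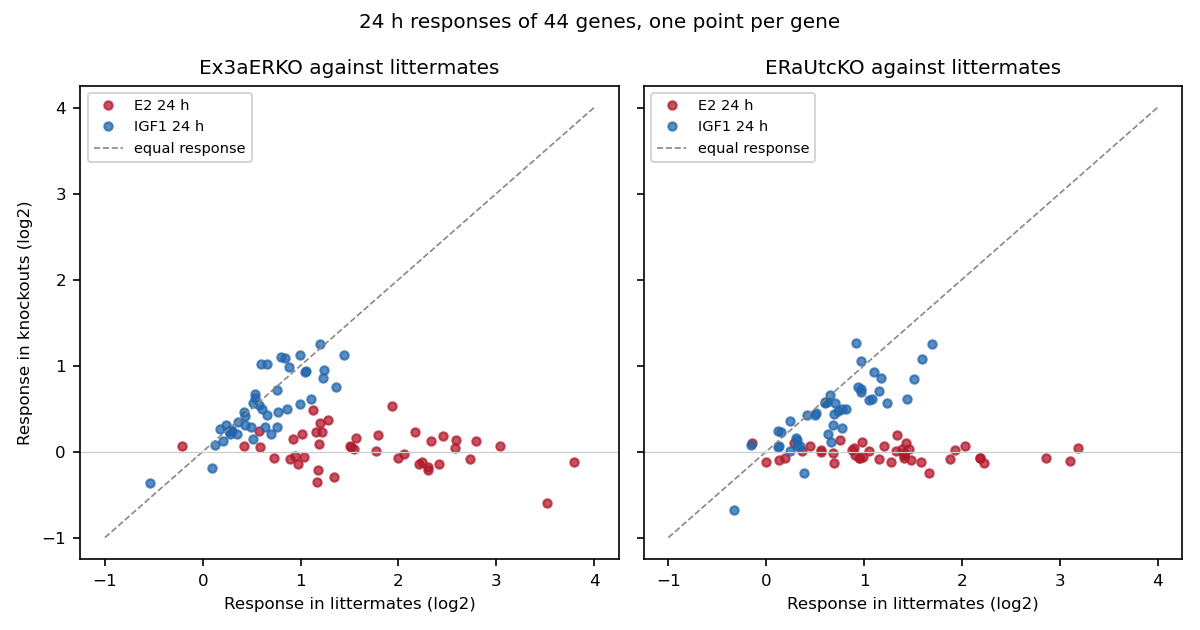
Each point is 1 of the 44 genes, with the 24 h response in littermates on the x axis and in knockouts on the y axis (log2 differences from each line's own vehicle), E2 in red and IGF1 in blue. E2 points lie along the zero line in both lines, while IGF1 points lie around the line of equal response in Ex3aERKO and mostly below it in ERaUtcKO.

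The IGF1 24 h response was present in both knockouts. In Ex3aERKO mice 22 of 44 members rose and none fell, where 11.7% and 6.86% of all genes did, and the median was 0.48. In ERaUtcKO mice 26 rose and 1 fell, where 16.9% and 15.5% of all genes did, and the median was 0.49. Of 6 stromal markers, 4 rose and 1 fell in Ex3aERKO (summed 17.77 to 18.30 under vehicle and 16.14 to 16.60 after IGF1). In ERaUtcKO 5 rose and 1 fell (18.02 to 18.10 and 17.19 to 17.59). The stromal sum is weighted to Dcn, its brightest marker, so it can fall while most of the markers rise. Epithelial markers rose for 2 of 7 (14.91 to 15.05 and 14.69 to 15.74) and 4 of 7 (13.90 to 14.45 and 14.04 to 14.66), and smooth muscle markers for 1 of 6 and 6 of 6. Their part in the result was not tested. The count in Ex3aERKO depends on single arrays: it was 7 without vehicle array 2, 14 without vehicle array 3 and 13 without IGF1 24 h array 2.

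Pcna rose most in both knockouts at 24 h of IGF1, by 1.25 ± 0.30 in Ex3aERKO and 1.26 ± 0.15 in ERaUtcKO. In Ex3aERKO mice it read 12.05 and 12.64 under vehicle and 13.46, 13.74 and 13.58 after IGF1. In ERaUtcKO mice it read 12.43, 12.23 and 12.78 and then 13.56, 13.76 and 13.92. Neither pair of groups overlapped. Mcm3 rose by 1.12 ± 0.24 and 1.25 ± 0.17. In Ex3aERKO it read 6.91 and 6.97 under vehicle and 7.82, 8.18 and 8.16 after IGF1, and in ERaUtcKO 7.19, 7.20 and 7.03 and then 8.20, 8.59 and 8.38. Called higher in all 5 lines at 24 h of IGF1 were 14 members: Mcm3, Mcm5, Cdc45, Gins2, Pola2, Prim2, Pole2, Pcna, Rrm1, Rrm2, Tyms, Chaf1a, Uhrf1 and Dtl. Of all genes, 2.43% were called higher in all 5. The 14 include a member of every role except single-strand binding.

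The interaction tests found no member whose IGF1 response differed between knockout and littermates. At 24 h 0 of 44 were called in Ex3aERKO (0.0133% of all genes), 1 at an unadjusted p under 0.05, with a median interaction of -0.07. The median half-width of the 95% intervals was 0.53, so differences of that size in a single gene could be missed. In ERaUtcKO 0 of 44 were called (0.0498% of all genes), but 37 of the 44 interactions were negative, their median was -0.25 against 0.06 over all genes, and 13 members (29.5%) had an unadjusted p under 0.05, as did 11.5% of all genes. The lowest was Mcm6, at -0.83 (95% interval -1.40 to -0.26). In ERaUtcKO mice Mcm6 read 9.77, 9.80 and 9.88 under vehicle and 10.19, 10.66 and 10.44 after IGF1, and in littermates 8.85, 9.48 and 9.66 and then 10.69, 10.92 and 10.71. All 3 knockout vehicle arrays lay above the littermate vehicle arrays, and the littermate group had the wider spread. At 2 h of IGF1, 0 members were called in either interaction (0.0% and 0.511% of all genes), and 0 and 4 had an unadjusted p under 0.05.

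The early IGF1 changes of Pole2 and Gins4 were seen in every line. Pole2 rose and Gins4 fell at 2 h in C57 mice, both littermate sets and both knockouts when each was tested alone (22.8% of all genes were called in C57 mice, 18.1% in Ex3aERKO littermates and 20.9% in ERaUtcKO littermates). Of the 44 members, 1 was called higher and 1 lower in all 5 lines at 2 h of IGF1. Of all genes, 4.53% were called higher and 3.48% lower in all 5 lines. Gins4 was 1.18 ± 0.23 below vehicle in Ex3aERKO and 1.28 ± 0.16 below it in ERaUtcKO. In ERaUtcKO mice Gins4 read 10.84, 11.09 and 10.88 under vehicle and 9.71, 10.05 and 9.19 at 2 h of IGF1, and 11.14, 11.26 and 11.12 at 24 h. Pole2 rose by 1.10 ± 0.20 and 0.89 ± 0.14. Tk1 rose in both knockouts at 2 h of IGF1, by 1.31 ± 0.18 and 1.68 ± 0.11, reading 9.59, 9.18 and 9.58 in ERaUtcKO mice against 7.80, 7.82 and 7.69 under vehicle. At 24 h Tk1 was back within 0.25 of vehicle in both, at -0.19 ± 0.16 and -0.25 ± 0.11. In all, 3 members were called at 2 h of IGF1 in Ex3aERKO (15.7% of all genes) and 15 in ERaUtcKO, 6 higher and 9 lower (13.1% and 16.2% of all genes). Quantile normalization gave 6 calls in Ex3aERKO, 2 higher and 4 lower, and centring gave 7 higher and 6 lower in ERaUtcKO. The shares of all genes are again from the values as deposited and do not apply to these re-scaled counts.

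Orc1 fell after IGF1 in both littermate sets and in ERaUtcKO mice. In Ex3aERKO littermates it fell by 0.85 ± 0.15 at 2 h and 0.54 ± 0.15 at 24 h, and in ERaUtcKO littermates by 0.29 ± 0.10 and 0.33 ± 0.09. In C57 mice the differences, 0.09 ± 0.08 and 0.17 ± 0.07, were not called. In ERaUtcKO mice it read 7.53, 7.55 and 7.62 under vehicle, 7.06, 7.04 and 6.84 at 2 h of IGF1 and 6.93, 6.85 and 6.89 at 24 h, falling by 0.59 ± 0.09 and 0.68 ± 0.09. All IGF1 arrays were below all vehicle arrays. In Ex3aERKO mice the differences were -0.45 ± 0.16 and -0.36 ± 0.15, neither called.

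Under vehicle, knockouts and littermates were compared directly. In Ex3aERKO 0 of 44 members were called (2.96% of all genes), 1 at an unadjusted p under 0.05 (limma). In ERaUtcKO 2 of 44 were lower, Gins1 by 0.66 and Pcna by 0.67, where 2.16% of all genes were lower. At an unadjusted p under 0.05 it was 14 of 44 (31.8%), against 18.2% of all genes. The ERaUtcKO vehicle arrays lay close together below their littermates in the median over members, between -0.16 and -0.14, and 37 of the 44 differences were negative. The median difference over members was -0.15, against -0.05 over all genes. The share of all genes with a negative difference was not counted. Leaving out single arrays gave 0 to 3 calls: none without knockout vehicle array 2, and 1 each without littermate vehicle array 2, knockout vehicle array 1 or knockout vehicle array 3.

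The spread between arrays differed among groups. The SD of the module value, the median over members per array, was 0.03 in Ex3aERKO littermates at 24 h of E2 and 0.01 in ERaUtcKO mice under vehicle. It was 0.31 in Ex3aERKO littermates at 24 h of IGF1, 0.18 in ERaUtcKO mice at 24 h of IGF1 (0.05 to 0.36) and 0.18 in both littermate sets at 2 h, after IGF1 in Ex3aERKO littermates (-0.15 to 0.17) and after E2 in ERaUtcKO littermates (-0.11 to 0.23). The members differed more from each other than a single member did between arrays. At 24 h of E2 the SD over members of the mean difference was 0.74 in C57 mice, 0.85 in Ex3aERKO littermates and 0.77 in ERaUtcKO littermates. The median SD of a single member between the arrays of those groups was 0.09, 0.16 and 0.13.

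Genes of the wider pathway also moved at 24 h. Of 29 other measured replisome and checkpoint genes, 23 rose and 4 fell at 24 h of E2 in wild types, with a median of 0.61, where 24.5% of all genes rose and 31.7% fell. Wdhd1, a polymerase alpha cofactor, rose by 1.94 ± 0.10 and Dbf4, the activator of the Cdc7 kinase, by 1.83 ± 0.09, while the origin recognition subunits Orc4 and Orc3 fell by 0.35 ± 0.07 and 0.27 ± 0.05. At 24 h of IGF1, 19 rose and 1 fell, where 19.3% of all genes rose and 21.6% fell. Tipin and Clspn, of the fork checkpoint, rose by 0.89 ± 0.13 and 0.82 ± 0.09, and Donson fell by 0.26 ± 0.06. Of 28 other nucleotide synthesis genes, 23 rose and 5 fell with E2 and 20 rose and 3 fell with IGF1. The nucleoside diphosphate kinase Nme1 rose by 3.35 ± 0.18 with E2 and 1.93 ± 0.18 with IGF1, and Nme2 by 1.85 ± 0.10 and 1.38 ± 0.10. Rrm2b, the reductase subunit used outside S phase, fell by 1.06 ± 0.08 and 0.61 ± 0.08, opposite to Rrm2, and the mitochondrial thymidine kinase Tk2 fell by 0.72 ± 0.09 and 0.46 ± 0.09, opposite in sign to the E2 change of Tk1.

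Of 23 genes for E2F and G1/S control, 16 rose and 6 fell at 24 h of E2 (24.5% and 31.7% of all genes). E2f8, a repressor induced in S phase, rose by 3.04 ± 0.11 and Cdkn1a, a cyclin-dependent kinase inhibitor, by 1.76 ± 0.24, while Cdk6 fell by 0.90 ± 0.11 and the D-type cyclin Ccnd2 by 0.74 ± 0.14. At 24 h of IGF1, 14 rose and 6 fell (19.3% and 21.6% of all genes). E2f8 was up by 1.38 ± 0.11 and Cdk4 by 0.92 ± 0.10. Cdk6 was at -0.89 ± 0.11 and Rb1, the retinoblastoma protein, at -0.71 ± 0.19. At 2 h, when the replication genes had not moved as a set, 8 of these 23 rose and 7 fell with E2 (17.2% and 22.8% of all genes), and Cdkn1a was 4.48 above vehicle. Ctps, CTP synthase, was 2.83 above vehicle at 2 h of E2 and 2.93 above at 2 h of IGF1. In both knockouts none of these genes was called at 24 h of E2, where 0.0% of all genes were called in each line. In Ex3aERKO 8 of 29 replisome, 9 of 28 nucleotide and 9 of 23 G1/S genes rose at 24 h of IGF1 (11.7% of all genes). In ERaUtcKO 11, 15 and 12 did (16.9% of all genes).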

How the data were processed

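RNA from 68 uterine samples was hybridized to Affymetrix whole-transcript arrays. The authors deposited a table of log2 values for 72688 probe sets; their summarisation and normalization are not given in the sources used. No column was left out. Of the annotated probe sets, 30604 carry 1 gene symbol and 2146 several, and the probe set with the highest mean per gene gave 30142 genes. Differences were fitted with limma 3.58.1 (R 4.3.3; lmFit, eBayes) over all genes, two-sided, with Benjamini-Hochberg adjustment and a threshold of 0.05: wild types in one fit with the mouse set as a term, and each knockout line with its littermates in a fit of 1 mean per group. The fits were tested on simulated data. All 45 members are described by rule. Of each other pathway list, at most the 2 largest rises and 2 largest falls among genes called in wild types at 24 h were named, and at 2 h only Ctps and Cdkn1a. Members and lists were chosen with earlier results of these data known. The number of arrays per group limits precision. Promoter letters are from RefSeq, GRCm38.p6. Replicate numbers did not pair samples (median correlation of same-numbered arrays -0.14 to 0). Alternatives were centring, quantile normalization, averaged probe sets, a level filter of log2 5, array weights, trended variances, a replicate block, and leaving out arrays or mouse sets.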

Additional observations from a re-analysis of the deposited data

Results flagged for a closer look

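By the interaction test, the E2 24 h response was lower in the knockout than in littermates for 37 members in Ex3aERKO and 39 in ERaUtcKO. Over all genes, 10.5% and 15.5% had a lower response in the knockout. The 3 largest differences in each line were those of Rrm1 (-4.12 and -3.22), Mcm3 (-3.91 and -3.15) and Rrm2 (-2.97 and -2.93). At 2 h of E2 the responses differed for 3 of 44 members in Ex3aERKO, where 9.43% of all genes differed. These were Orc1 (1.23), Tk1 (-0.97) and Slbp (-0.84). In ERaUtcKO they differed for 9 of 44, where 13.8% of all genes did, led by Orc1 (0.97), Tk1 (-0.80) and Gins4 (0.76).

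The wild-type sets differed in some responses. This test, the mean response of both littermate sets minus that of C57 mice, was added after the values were seen. At 2 h it called 2 members for E2 (2.11% of all genes), Tk1 at 1.25 (95% interval 0.94 to 1.56, adjusted p = 1.77e-06, limma) and Orc1 at -1.06. It also called 2 for IGF1 (1.07% of all genes), Tk1 at 1.02 and Orc1 at -0.67. At 24 h of E2 it called 10 members (11.3% of all genes), the largest being Gmnn (0.98), Fen1 (-0.90) and Mcm5 (-0.87), and at 24 h of IGF1 it called 2 (1.82%), Orc1 (-0.61) and Chaf1b (-0.49). Orc1, Gmnn and Fen1 lay below the antigenomic 95th percentile in C57 vehicle uteri, and the Ex3aERKO set had lower array medians than the C57 set. The part of these in the differences was not tested.

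The probe set shared by Mcm7 and a pair of miRNA genes entered no comparison. After E2 for 24 h it was above vehicle by 1.17 in C57 mice, 0.77 in Ex3aERKO littermates and 0.59 in ERaUtcKO littermates. In these sets every E2 24 h array was above every vehicle array (C57 11.49 to 11.77 against 10.40 to 10.58), as for 25.3%, 27.7% and 22.9% of all genes. At 2 h the probe set went the other way, with all arrays below vehicle in the 3 sets. It differed from vehicle by -0.63, -0.43 and -0.44 with E2 and by -0.62, -0.79 and -0.59 with IGF1. Of all genes, 22.3%, 23.6% and 25.7% lay below vehicle in this way with E2, and 23.0%, 22.7% and 24.4% with IGF1. At 24 h of IGF1 it differed from vehicle by 0.11, -0.01 and 0.01.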

How the results depend on the processing

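Each count of members called was recomputed under the alternatives, and 199 of 206 such counts, single arrays aside, stayed within 1.5 times the main one. The others were IGF1 2 h in wild types (14 calls), which gave 8, 8 and 9 without the C57, Ex3aERKO and ERaUtcKO mouse sets, E2 minus IGF1 at 2 h (13 calls), with 20 under array weights and 5 without the C57 set, IGF1 2 h in Ex3aERKO (3 calls), with 6 after quantile normalization, and the ERaUtcKO IGF1 2 h interaction (0 calls), with 1 after quantile normalization. Leaving out single arrays gave 7 to 21 calls for IGF1 24 h in Ex3aERKO, 3 to 5 for IGF1 2 h in Ex3aERKO, 0 to 1 and 0 to 2 for the ERaUtcKO IGF1 interactions at 2 h and 24 h, and 0 to 3 under vehicle in ERaUtcKO. Of 20891 member values, 1 changed sign with a call: Tk1, E2 24 h minus E2 2 h, which was -0.39 without the C57 mouse set. The replicate block, although the numbers did not pair samples, gave 43, 38, 37 and 38 calls for E2 24 h and IGF1 24 h in wild types and the E2 24 h interactions in Ex3aERKO and ERaUtcKO, and 18 for IGF1 24 h in Ex3aERKO. Genes near array background limit what can be read from small changes.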
